A study of Mus musculus with 12 samples.

Results

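Input RNA labelled as from late spermatocytes was compared between 2 Miwi genotypes. Cells of the first carry catalytically mutant MIWI as their only MIWI copy (Miwi ADH/-), and cells of the second lack the protein (Miwi -/-). These are 4 of the 12 samples of the series, 2 per genotype by the labels, and each genotype has 1 column of values, so the comparison is between 2 columns of 6. The remaining columns are the Miwi +/- input and the MIWI immunoprecipitates (IP) of all 3 genotypes, and they are given beside the inputs. Every sample is labelled as mouse late spermatocyte RNA from which ribosomal RNA was removed. The Miwi ADH/- animals carry 1 ADH allele over a null allele, the Miwi -/- animals lack both copies, and the Miwi +/- animals, which serve as the controls, carry the null allele too. The labels give no strain and no age. Their protocols name testes or sorted cells as the source of RNA without saying which sample came from which.

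MIWI, encoded by Piwil1, is a PIWI-clade Argonaute protein. It binds pachytene piRNAs, small RNAs that accumulate from the middle of meiotic prophase into the round spermatid stage. PIWI proteins can cut RNAs that pair with their piRNA, and earlier work describes ADH as a change in the catalytic site for that cutting. Male mice without MIWI are sterile, with germ cells that stop developing as round spermatids. The comparison asks how RNA of cells with a MIWI that cannot cut differs from RNA of cells with no MIWI.

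The unit is RPKM, a read number normalised for gene length and for the read total of the column. Differences are log2(RPKM + 1) in Miwi ADH/- minus log2(RPKM + 1) in Miwi -/-, so a positive value means higher in Miwi ADH/-. They were taken for 12246 of 20345 genes, those with at least 1 RPKM in at least 2 of the 6 columns. With 1 column per genotype there is no replicate check and no p-value. Counts below are counts by size of difference, and intervals are 95% counting intervals of the ratio of reads. Such an interval covers counting error between a pair of libraries, and says nothing of the spread among animals or cell preparations.

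The table lists Ensembl gene IDs without names, and 0 of them could be matched to a symbol in the reference gene table. The marker lists for spermatogonia, meiotic stages, spermatids, Sertoli, Leydig, peritubular, endothelial and blood cells therefore gave no values. The labelled cell type, the Piwil1 level and the somatic cell content of the inputs were not checked here. Genes are described below by ID, level, length and pattern across columns. In such bulk RNA, fewer cells of a type and less of an RNA per cell cannot be told apart.

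The Miwi ADH/- input stood apart from the other columns in which genes it lists. It held 2627634 reads in listed genes, the fewest of the inputs, against 3810918 in the Miwi -/- input and 3918947 in the Miwi +/- input. Yet it had the most genes above 0, at 17407, against 16041 in Miwi -/- and 16092 in Miwi +/-. Of these, 1113 were above 0 in the Miwi ADH/- input alone, while 598 were so in the Miwi -/- input and 482 in the Miwi +/- input. Most were low, with a median of 0.282 RPKM.

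A small number of them were very high. In the Miwi ADH/- input 44 genes had 10 RPKM or more while all other 5 columns listed them at 0. Their values ran from 10.7 to 3490.6 RPKM with a median of 60.2, and 7 of them were above 1000 RPKM. The other columns had between 0 and 6 genes of that kind, none at 100 RPKM or more and the highest at 47.9. The highest 2, picked after their values were seen, were ENSMUSG00000075736 at 3490.6 RPKM and ENSMUSG00000065037 at 3375.8 RPKM. The Miwi ADH/- IP, made from the same genotype, was among the columns at 0. Whether reads of these genes were removed from the other columns, or whether the Miwi ADH/- input was otherwise processed differently, is not stated in the labels and was not tested, so a 0 here may not mean absence of the RNA. The 44 genes held 4.68% of all RPKM of the Miwi ADH/- input. None of them enters the comparison, because each has a value in 1 column only. Among the compared genes, 1 gene had at least 10 RPKM in the Miwi ADH/- input and 0 in both other inputs. No compared gene had such a pattern in the Miwi -/- or the Miwi +/- input.

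**Figure D1:**
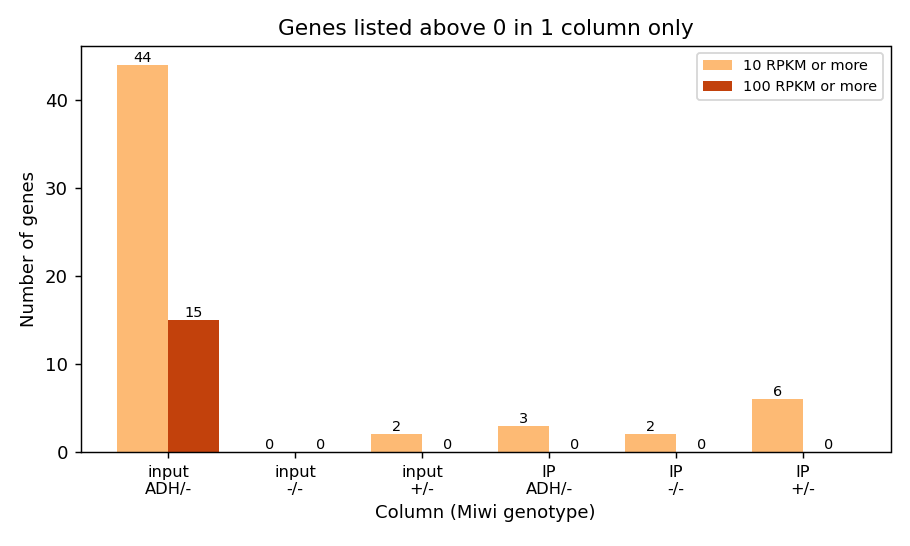
Number of genes listed above 0 in 1 column only, by column, with 10 RPKM or more (pale bars) and with 100 RPKM or more (dark bars). The Miwi ADH/- input has 44 and 15 such genes, and each other column has at most 6 and 0.

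The largest differences between the inputs lay in a set of transcripts that were present in Miwi ADH/- and nearly absent in Miwi -/-. There were 1537 genes at least 2-fold higher in Miwi ADH/- (12.6% of the compared genes) and 801 at least 2-fold lower (6.54%). Counting intervals excluded equality for 1443 and 715 of them, and for 7130 of all 12246 compared genes. The imbalance grew with the size of the difference. At 4-fold, 716 genes (5.85%) were higher and 62 (0.506%) lower, and at 8-fold 361 (2.95%) were higher and 7 (0.0572%) lower. The intervals excluded equality for all 361 and for all 7. These genes were picked by the difference between the same columns, so the intervals are no separate support.

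The bulk of the genes leaned the opposite way. The median difference of all compared genes was -0.18, and the middle 50% ran from -0.55 to 0.35. The 5th percentile was -1.08 and the 95th was 2.27, so the long tail lay on the side higher in Miwi ADH/-. Many genes lay close to the 2-fold bound on the lower side, with 498 at 1.8 to under 2-fold lower and 273 at 2 to under 2.2-fold lower. On the higher side 229 and 189 genes lay in those ranges. The count of lower genes moved more with the scale. Relative to the median difference, 1814 genes were higher and 453 lower, and 80.0% of the genes past 2-fold were then higher, against 65.7% on the deposited scale.

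**Figure D2:**
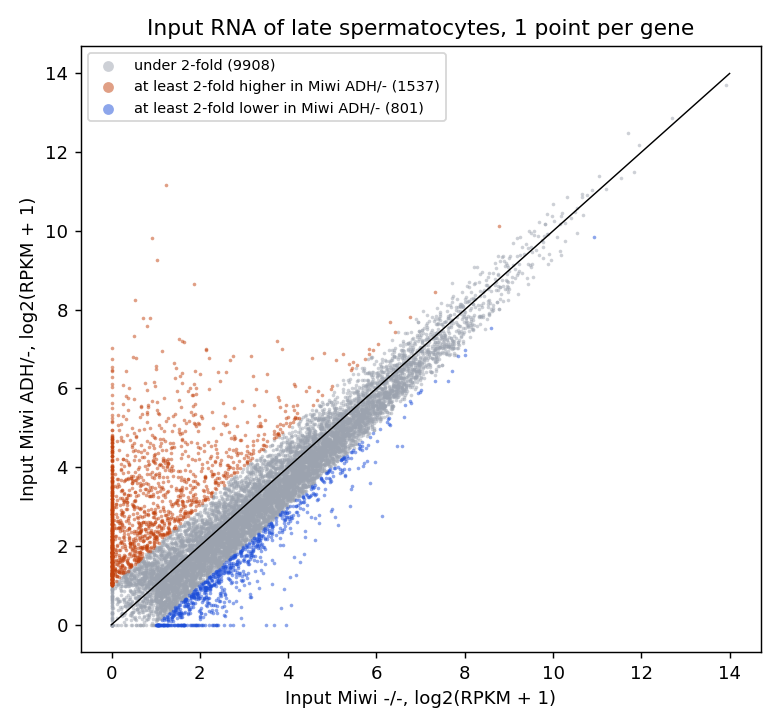
Level in the Miwi ADH/- input (vertical) against the Miwi -/- input (horizontal), both as log2(RPKM + 1), 1 point per gene for 12246 genes. The line marks equal levels. The 1537 genes at least 2-fold higher in Miwi ADH/- spread far above the line over low Miwi -/- levels, and the 801 lower genes lie close below it.

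**Figure D3:**
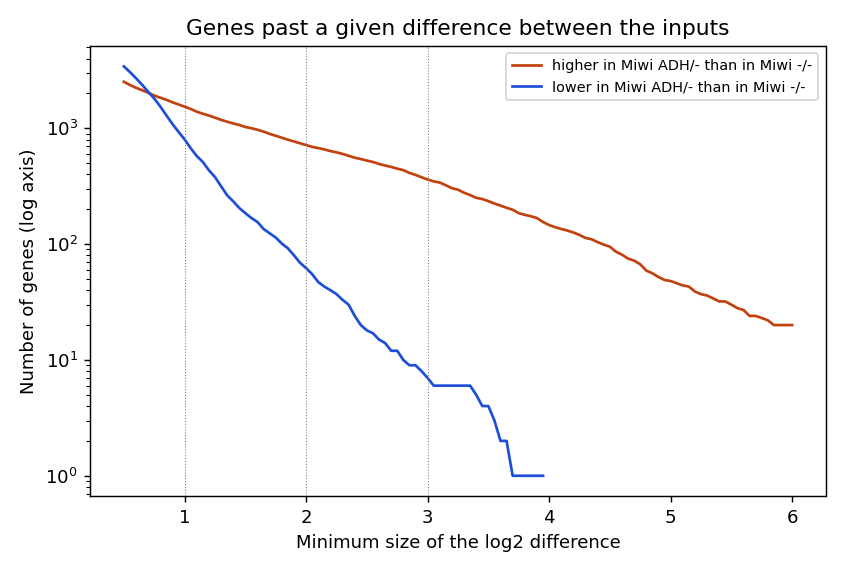
Number of genes (log axis) whose difference reaches at least the size on the horizontal axis, for genes higher in Miwi ADH/- and genes lower in Miwi ADH/-. At 1, 2 and 3 on the log2 scale, the higher side holds 1537, 716 and 361 genes and the lower side 801, 62 and 7.

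The 2 genes furthest to the higher side were abundant transcripts in cells with either MIWI allele. ENSMUSG00000026182 had 2296.2 RPKM in the Miwi ADH/- input, 1.35 in the Miwi -/- input and 670.6 in the Miwi +/- input. The Miwi -/- value rests on 4 reads and the Miwi ADH/- value on 5268. The ratio of Miwi ADH/- to Miwi -/- was 1704.3, with a counting interval of 665.2 to 6257.3. Its IP levels were 262.7 RPKM in Miwi ADH/-, 14.3 in Miwi -/- and 104.4 in Miwi +/-. So this transcript was lowest in Miwi -/- in both kinds of library, and higher in Miwi ADH/- than in the control. In Miwi -/- alone its IP level exceeded its input level, on 25 and 4 reads, so the near absence holds for the input.

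ENSMUSG00000022501 had the same order of levels. It stood at 900.1 RPKM in the Miwi ADH/- input, 0.901 in the Miwi -/- input (3 reads) and 337 in the Miwi +/- input. The ratio of Miwi ADH/- to Miwi -/- was 999.4 (341.6 to 4850). In the IPs it had 86.2 RPKM in Miwi ADH/-, 8.18 in Miwi -/- and 14.1 in Miwi +/-. Here, too, the IP level exceeded the input level in Miwi -/- only. Both genes are short, with lengths of 0.258 and 0.29 times the median of the compared genes. Lengths follow from the RPKM steps up to a common factor and are given only relative to that median.

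On the lower side, ENSMUSG00000085525 had 0.425 RPKM in the Miwi ADH/- input (1 read), 15.8 in the Miwi -/- input (48 reads) and 16.5 in the Miwi +/- input. The ratio of Miwi -/- to Miwi ADH/- was 37.1, with a wide interval of 6.35 to 1495.2 because of the single read. It was listed at 0 in the Miwi ADH/- IP, at 22.4 RPKM in the Miwi -/- IP and at 23 in the Miwi +/- IP. The Miwi ADH/- columns were thus low in both kinds of library, and the Miwi -/- columns lay near the control.

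ENSMUSG00000091697 had 5.82 RPKM in the Miwi ADH/- input (7 reads), 68.8 in the Miwi -/- input (107 reads) and 59.7 in the Miwi +/- input. Miwi -/- exceeded Miwi ADH/- by a ratio of 11.8 (5.54 to 30.1). Its IP levels were 3.88 RPKM in Miwi ADH/-, 7.66 in Miwi -/- and 17.1 in Miwi +/-, where the 2 mutants rest on 9 and 7 reads. For this gene, too, the control input resembled Miwi -/- and not Miwi ADH/-.

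The 361 genes at least 8-fold higher in Miwi ADH/- all had at least 7 RPKM there, which the pseudocount of 1 requires. Their median level was 21.8 RPKM in the Miwi ADH/- input (quartiles 12.7 and 39.5), 0.341 in the Miwi -/- input (0 and 1.03) and 9.87 in the Miwi +/- input (3.85 and 21.5). Of the 361, 125 were listed at 0 in the Miwi -/- input and 5 in the Miwi +/- input. With a gene at 0 set to 3 reads in that library, their median ratio of Miwi ADH/- to Miwi -/- was 31.4. Genes with fewer than 3 reads but above 0 kept their own values, so this is no lower bound. Together they held 4.22% of the RPKM of the compared genes in Miwi ADH/-, 0.0763% in Miwi -/- and 1.88% in Miwi +/-. Against the Miwi +/- input, which both differences share, their median difference was 1.13 in Miwi ADH/- and -2.84 in Miwi -/-. All compared genes had medians of -0.16 and -0.02 on the same measures. The group was chosen on the difference between the mutants, which these values add up to for each gene, so they are given as a description only.

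Among genes with a smaller excess, the Miwi +/- median also lay between those of the mutants. That Miwi ADH/- exceeds Miwi -/- follows from the choice of genes. The same choice favours a place in between for a column not used in it, so the order is a description only. With the pseudocount, a smaller excess can also be reached at a lower level. The 355 genes 4 to under 8-fold higher had medians of 6.55 RPKM in Miwi ADH/-, 0.263 in Miwi -/- and 3.42 in Miwi +/- inputs. The 821 genes 2 to under 4-fold higher had 3.67, 0.692 and 2.41 RPKM in the same order of inputs. Over all 1537 higher genes, 472 were listed at 0 in the Miwi -/- input, 319 of them with at least 10 reads in Miwi ADH/-. At 100 RPKM or more there were 40 of the 1537 in Miwi ADH/-, 3 in Miwi -/- and 13 in Miwi +/-. Of all 12246 compared genes, 672, 729 and 708 reached that level in the same order of inputs. The contrast of 40 with 3 follows in part from how the 1537 were chosen. The filter let 173 of the 1537 in through the Miwi ADH/- columns alone, and 12 of the 361. Those genes reached 1 RPKM in no other column, so they had to be higher in Miwi ADH/- to be kept. Through the Miwi -/- columns alone it let in 16 of the 801 lower genes. Of all compared genes, 222 came in through the Miwi ADH/- columns alone and 60 through the Miwi -/- columns alone. Without a filter, 66.4% of genes past 2-fold were higher in Miwi ADH/-, against 65.7% with it.

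The genes lower in Miwi ADH/- were fewer, by a margin that depends on the processing. With 1 RPKM required in both inputs, 537 genes were at least 2-fold higher and 469 lower, and with a pseudocount of 0.1 there were 1949 and 1506. That pseudocount also gave 353 genes at least 4-fold lower, against 62 with a pseudocount of 1. The 739 genes 2 to under 4-fold lower had a median of 1.5 RPKM in the Miwi ADH/- input, 5.12 in the Miwi -/- input and 3.79 in the Miwi +/- input. The 62 genes at least 4-fold lower had medians of 0.451, 7.74 and 3.93 RPKM in that order. Against the shared Miwi +/- input, the 62 genes lay at a median of -1.32 in Miwi ADH/- and 0.97 in Miwi -/-. They held 0.0288% of the RPKM of compared genes in Miwi ADH/- and 0.218% in Miwi -/-. They were short, with a median length of 0.347 times that of all compared genes, and rest on a median of 40.5 reads over both inputs. In 53 of the 62 the counting interval excluded equality, and 19 were listed at 0 in the Miwi ADH/- input.

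**Figure D4:**
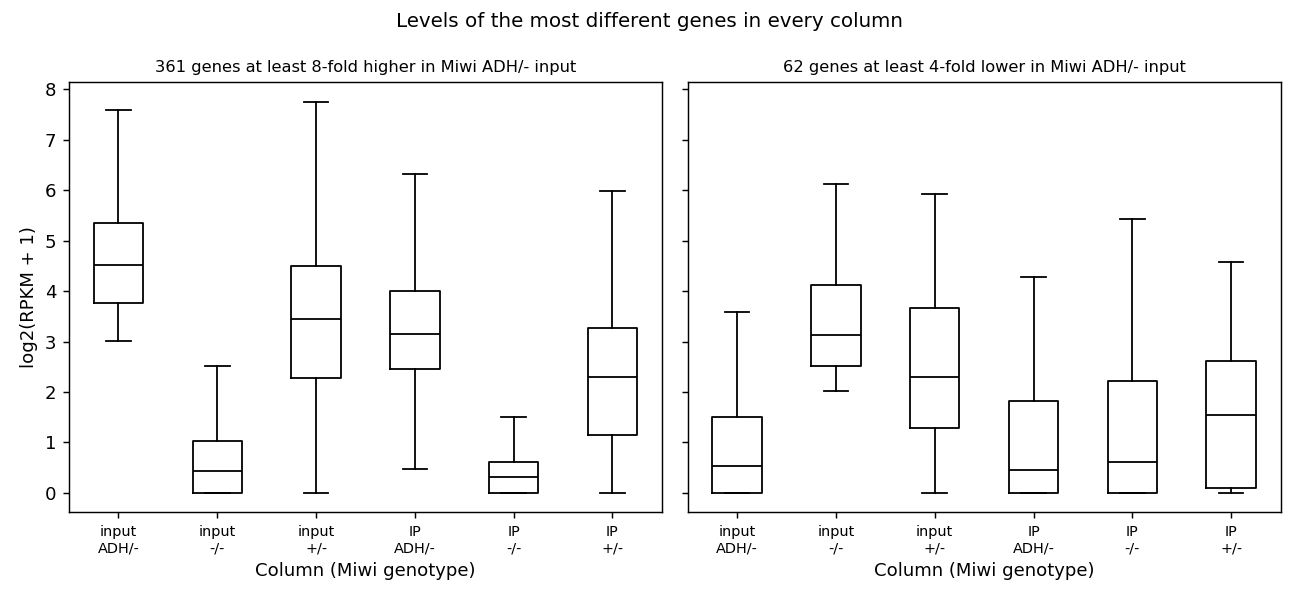
Levels, as log2(RPKM + 1), of the 361 genes at least 8-fold higher (left) and the 62 genes at least 4-fold lower (right) in the Miwi ADH/- input than in the Miwi -/- input. Boxes span the quartiles with the median as a line, whiskers reach the most extreme gene within 1.5 box lengths, and genes beyond are not drawn. On the left the Miwi -/- input and IP are the low columns, and on the right the Miwi ADH/- input is the lowest input.

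The IPs are separate libraries of the same genotypes, and these groups were not chosen on them. Sample titles number IPs and inputs alike, without saying whether an IP and an input share a cell preparation. The IPs may therefore not be an independent check of the inputs. By its label, the Miwi -/- IP comes from cells without MIWI and serves as the background of the antibody. Over all compared genes, the IP level in Miwi ADH/- minus that in Miwi -/- had a median of 1.05. In Miwi ADH/-, 51.8% of genes were at least 2-fold higher and 4.93% at least 2-fold lower. The RPKM of all listed genes summed to 266217 in the Miwi ADH/- IP and 129690 in the Miwi -/- IP. Shares on the deposited scale carry this offset between the columns. Of the 361 genes, 339 (93.9%) were at least 2-fold higher in the Miwi ADH/- IP and 2 (0.554%) lower. Their median IP levels were 7.82 RPKM in Miwi ADH/-, 0.238 in Miwi -/- and 3.88 in Miwi +/-. Among those above 0 in IP or input, the IP exceeded the input for 40.9% in Miwi -/- and 7.76% in Miwi ADH/-. Over all compared genes these shares were 13.4% and 31.8%. The group was chosen for low Miwi -/- and high Miwi ADH/- input, which favours this contrast. Measured from the IP median, 272 of the 361 (75.3%) were at least 2-fold higher, against 20.8% of all genes.

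The IP columns help decide which genes pass the filter. Among the 10370 genes with at least 1 RPKM in both the Miwi ADH/- and the Miwi +/- input, a choice made after seeing the data, the IP plays no part in selection. There 323 of 344 genes of the 8-fold group (93.9%) were at least 2-fold higher in the Miwi ADH/- IP, against 54.9% of all. The Miwi -/- IP was the shallowest column, with 761525 reads in listed genes against 3706479 in the Miwi ADH/- IP, and 137 of the 361 genes were listed at 0 there.

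The genes lower in the Miwi ADH/- input did not lie to 1 side in the IPs on the deposited scale. With Miwi ADH/- set against Miwi -/-, 203 of the 801 (25.3%) were at least 2-fold higher in the IP and 127 (15.9%) at least 2-fold lower, with a median difference of 0.16. Of the 62, 9 (14.5%) were higher and 15 (24.2%) lower. These shares compare with 51.8% higher and 4.93% lower over all genes. Measured from the IP median, 379 of the 801 (47.3%) and 45 of the 62 (72.6%) were at least 2-fold lower, against 20.9% of all genes. These counts include 98 and 16 genes with 0 reads in both IPs, which are counted as lower on that scale by construction. Without such genes, the IP median was 1.1, and 288 of 703 genes (41%) of the 2-fold group and 30 of 46 (65.2%) of the 4-fold group were at least 2-fold lower than it, against 19.3% of 11820 genes. Leaving those genes out was chosen after seeing the data.

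The share of genes past 2-fold depended on the control level. Classes were formed by the Miwi +/- input, which is neither of the columns compared. Counting error differed between the classes as well. The median reads over both inputs were 26 in the class above 0 and up to 1 RPKM and 2624 above 100 RPKM. Of the 851 genes above 0 and up to 1 RPKM in the Miwi +/- input, 21.0% were higher in Miwi ADH/- and 7.52% lower. Of the 3865 genes above 1 and up to 5 RPKM there, 16.4% were higher in Miwi ADH/- and 9.55% lower. Of the 3858 genes above 5 and up to 20 RPKM, 11.8% were higher and 5.75% lower, and of the 2735 genes above 20 and up to 100 RPKM, 6.44% and 3.58%. Of the 708 genes above 100 RPKM, 13 (1.84%) were higher and 11 (1.55%) lower, so the numbers were similar at the 2-fold bound. Larger differences in this class were on the higher side, with 8 genes at least 8-fold higher and 0 at least 4-fold lower. The 229 genes listed at 0 in the control had the highest shares, 34.5% higher and 16.2% lower, on a median of 9 reads over both inputs.

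The genes at least 8-fold higher were spread differently over these classes. They made up 2.41% of the genes above 1 and up to 5 RPKM in the control, 3.84% of those above 5 and up to 20, 3.47% of those above 20 and up to 100, and 1.13% of those above 100. They made up 2.18% of the genes listed at 0 in the control and 1.41% of those above 0 and up to 1 RPKM. With a pseudocount of 1, a gene needs at least 7 RPKM in Miwi ADH/- to reach 8-fold, which keeps genes of low level out of the group.

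Short genes differed most often. When the compared genes were divided by length into 5 classes of nearly equal size, 24.2% of the shortest class were at least 2-fold higher in Miwi ADH/- and 9.47% lower. The shares were 15.1% and 7.1% in the next class, 9.23% and 6.61% in the middle one, 8.37% and 5.88% in the one after, and 5.84% and 3.63% in the longest. The 8-fold group made up 8% of the shortest class and 0.327% of the longest. Of its 361 genes, 196 lay in the shortest class. The median difference was 0.15 in the shortest class, -0.08, -0.26 and -0.27 in the next ones and -0.3 in the longest. The shortest class had a median of 59 reads over both inputs and the longest 259, so counting error differed between them. Where the counting interval had to exclude equality as well, 498 genes of the shortest class were higher and 146 lower. The part of library preparation or of read depth in this relation with length was not tested.

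**Figure D5:**
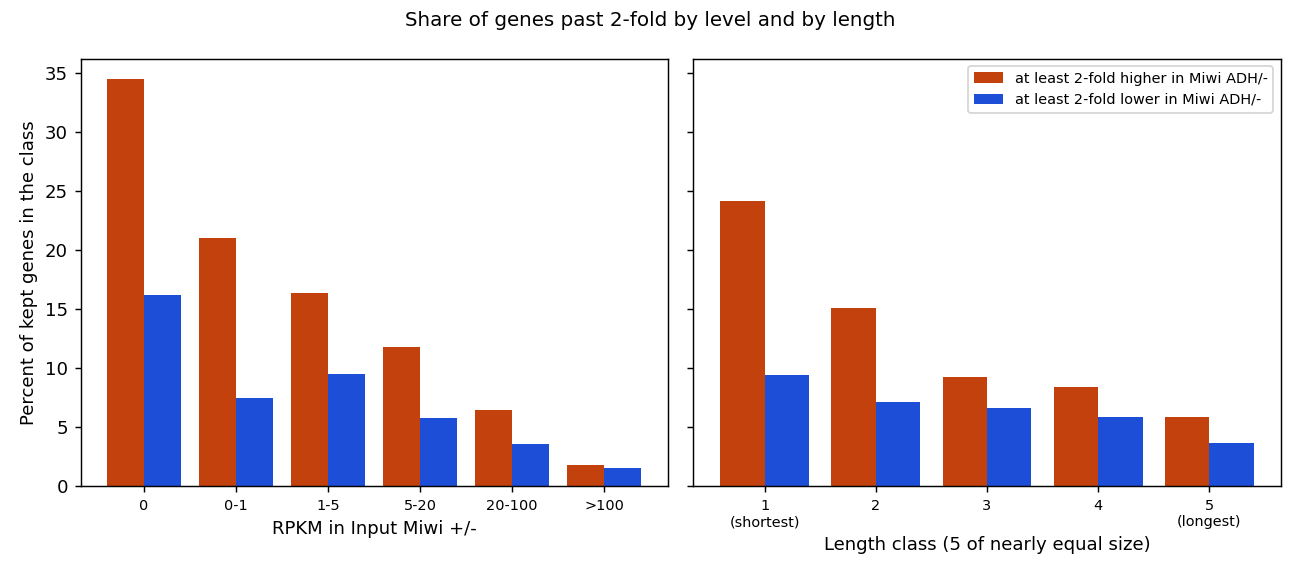
Percent of compared genes at least 2-fold higher and at least 2-fold lower in the Miwi ADH/- input than in the Miwi -/- input, by RPKM class in the Miwi +/- input (left) and by length class (right). Higher genes outnumber lower ones in every class, from 24.2% against 9.47% in the shortest class to 5.84% against 3.63% in the longest.

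The 2 mutant input columns were less alike than either was to the control column, with no replicate columns to judge such gaps by. Across the 12246 genes, which are not independent replicates, Pearson's r of log2(RPKM + 1) was 0.856 between Miwi ADH/- and Miwi -/-, 0.924 between Miwi ADH/- and Miwi +/-, and 0.91 between Miwi -/- and Miwi +/-. The median absolute difference was 0.48 for Miwi ADH/- against Miwi -/-, 0.45 for Miwi ADH/- against Miwi +/- and 0.33 for Miwi -/- against Miwi +/-. The median signed difference was -0.18 and -0.16 for the pairs that include the Miwi ADH/- input and -0.02 for the pair that does not. The Miwi ADH/- column is also the one with the 44 genes listed nowhere else, and whether these belong together was not tested.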

How the data were processed

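RNA-seq of MIWI IPs and inputs was used as 1 deposited table of RPKM in 6 columns. Per the file headers, RPKM is the unit of both Miwi +/- columns. It was assumed for the other columns, whose values move in steps of like proportion. The sources used here do not state whether a column holds 1 sample or both samples of its group. The submitters' processing notes name TopHat, Bowtie and mm9 without version or role. The sources used here do not give the counting program or the annotation. Reads per gene were recovered as the smallest whole numbers, within 0.002 reads plus 1e-07 of the read number, that give a gene's values in all columns. Low read numbers can therefore be too small. All sums of reads, log2 differences (pseudocount 1) and exact counting intervals (95%, Clopper-Pearson on the share of reads in Miwi ADH/-, counting error only, as PCR copies are not independent molecules) were computed from the deposited RPKM with Python 3.11.15, NumPy 2.4.6, SciPy 1.17.1 and pandas 2.3.3. The scripts were tested on simulated data.

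The planned limma test needs replicate columns and was not run. Named genes are the 2 highest and 2 lowest differences among 6064 genes with a mean RPKM of both inputs at or above the median of compared genes (6.99) and at least 30 reads in the inputs together. The comparison and the gene lists were chosen with earlier results of these data known. The lists and promoter motifs need gene names and gave no values. Alternatives were another pseudocount, scaling or filter.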

Additional observations from a re-analysis of the deposited data

How the results depend on the processing

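No paired analysis was possible because the columns carry no replicate numbers, and leaving out a replicate could not be run for the same reason. Higher genes outnumbered lower ones under every alternative run, making up 53.4% to 86.0% of the genes past 2-fold. The counts themselves depend on the pseudocount and the filter. With a pseudocount of 0.1 there were 1949 higher and 1506 lower genes (56.4% higher), 934 genes at least 8-fold higher and 353 at least 4-fold lower. With a pseudocount of 5 these were 695, 113, 81 and 2, and 86.0% of genes past 2-fold were higher. Requiring 1 RPKM in both inputs leaves out the genes nearly absent in 1 of them, and gave 537 higher, 469 lower, 93 at least 8-fold higher and 22 at least 4-fold lower among 9700 genes (53.4% higher). Requiring 30 reads in the inputs together gave 39 genes at least 4-fold lower. Relative to the median of all genes 453 genes were lower, and with median-of-ratios scaling 481 (80.0% and 78.9% higher). Without a filter 1944 genes were higher and 983 lower among 18907. A pseudocount cannot change the sign of a difference, and the scalings moved the 4 named genes too little to do so. With a pseudocount of 5, ENSMUSG00000026182 stood at 8.5, ENSMUSG00000022501 at 7.26, ENSMUSG00000085525 at -1.94 and ENSMUSG00000091697 at -2.77. With a pseudocount of 1 these differences were 9.93, 8.89, -3.56 and -3.35. Depth limits both sides: 225 of the 716 genes at least 4-fold higher had 0 reads in Miwi -/- with at least 10 in Miwi ADH/-, and 8 of the 62 genes at least 4-fold lower had 0 reads in Miwi ADH/- with at least 10 in Miwi -/-.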
